A study of Arabidopsis thaliana with 9 samples.

Results

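The genes described are the 44 nuclear genes, of 26973 genes in the deposited table, whose description contains the word proteasome. They were taken by that word alone and by a locus name on chromosomes 1 to 5. The rule uses no expression value, but it was chosen with earlier results of these data known. By their annotation, 11 encode subunits of the alpha ring of the core particle and 7 encode subunits of its beta ring. A further 6 belong to the base and 2 to the lid of the regulatory particle, and 9 encode activators, inhibitors, assembly factors or a subunit with no finer description. The last 9 are described only as PCI-domain or proteasome family proteins, the PCI domain being a fold that the proteasome lid shares with other complexes, and 4 of these are named as subunits of the COP9 signalosome, a complex that removes the ubiquitin-like modifier from cullin ligases. In the subunit list used below, 2 others of these 9, AT5G45620 and AT4G19006, are the pair of genes for lid subunit RPN9.

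RNA-seq had been performed on Arabidopsis thaliana seedlings of 3 genotypes with 3 libraries each, labelled wild type, OXmiR400 and OXrPPR1. All 9 libraries, wild type included, came from seedlings given cadmium at 100 µM for 6 h, a heavy metal toxic to plants. Untreated seedlings were not analysed here, and every comparison is therefore between genotypes under the metal. The labels give neither the promoter behind the transgenes nor the number of independent lines, and the titles carry 1 line code per transgenic genotype, ColombiaYK2 for OXmiR400 and Colombia1C9 for OXrPPR1, beside ColombiaWT for wild type. Nothing in them shows that the replicates were grown separately, and the p-values then cover only a spread between samples that may be technical.

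The proteasome is the large protease that degrades proteins marked with ubiquitin. Its barrel-shaped core holds the proteolytic sites inside the beta rings and is gated by the alpha rings, while the regulatory particle binds ubiquitin, unfolds the substrate with a ring of ATPases and feeds it into the core. In Arabidopsis many subunits are encoded by pairs of similar genes. When proteasome activity is impaired, plants are known to raise the transcripts of most subunits together through the NAC transcription factors NAC53 and NAC78.

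Levels are FPKM, which scales reads or fragments by exon length and by library size. The depth, rebuilt from the smallest steps between values, was lowest in wild type replicate 1 at 12.7 M reads or fragments and highest in OXrPPR1 replicate 1 at 21.1 M, with 15.1 and 17.1 M in the remaining wild type libraries, 15.5 to 17 M for OXmiR400 and at least 19.2 M for OXrPPR1. MIR400, the locus of the microRNA in the first label, averaged 755 ± 173 FPKM (SD, n = 3) in OXmiR400, and its highest value in the other 6 libraries was 0.572 FPKM. PPR1, the pentatricopeptide repeat gene in the second label, stood at 25.5, 24.7 and 21.9 FPKM in OXrPPR1 and at 1.34 to 2.56 FPKM in the other libraries. Across all tested genes, OXrPPR1 replicate 3 was nearer to wild type replicates 3 and 1 (r = 0.971 and 0.968) than to its own genotype (0.965 and 0.962), and wild type replicate 2 was nearest to OXrPPR1 replicate 1 (r = 0.975). These values are across genes, which are not independent replicates. Both shoot markers (LHCB1.2, RBCS1A, LHCB2.2 and GLK1) and root markers (CASP1, CASP2, PIP2;4 and RHD6) were detected, as whole seedlings would hold.

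The proteasome genes were expressed at moderate and rather similar levels. A gene was tested where its mean reached 1 FPKM in at least 1 genotype, which 19955 genes and 42 of the 44 proteasome genes did. Means over the 9 libraries ran from 9.34 to 91.3 FPKM in the 42 tested genes, with a median of 36.6 FPKM, beside a median of 10.9 FPKM over all tested genes. Alpha ring genes had the highest median of the larger groups at 60.8 FPKM, beta ring genes stood at 48.1 FPKM, base genes at 27.4 FPKM and the PCI-domain genes at 22.9 FPKM.

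At the top of the order was AT5G38650, one of a pair of genes for the maturation factor UMP1 that assists core assembly, with 85.7 ± 9.99 FPKM in wild type, 92.1 ± 8.06 in OXmiR400 and 96.3 ± 5.63 in OXrPPR1 (SD, n = 3 each). Its model overlaps AT5G38660 on the same strand, so reads of the pair may have been split between them. Next came the alpha subunit gene PAF1 at 84.5 ± 9.30, 77.4 ± 3.86 and 75.4 ± 0.673 FPKM, a gene that the RefSeq annotation also names ARS5 and describes as a negative regulator of thiol biosynthesis and arsenic tolerance. AT4G24820, the gene for lid subunit Rpn7, followed with a mean of 77.0 FPKM over all libraries, and its libraries overlapped those of PAF1. The lowest tested genes were PAF2, the second gene for the PAF subunit, at 9.34 FPKM, the PCI-domain gene EER5 at 9.76 FPKM and the activator gene PA200 at 12.1 FPKM. Below the filter lay AT1G48530, a gene for a proteasome inhibitor-like protein with values from 0 to 0.297 FPKM, and AT1G62920, described as a maturation factor, with values from 0.303 to 1.10 FPKM. These 2 genes therefore have no test.

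Between libraries of a genotype the proteasome genes varied little. The standard deviation within genotypes, on the log2(FPKM + 1) scale used for all tests, had a median of 0.11 over the 42 genes. Over all tested genes it was 0.19, and over the 9616 tested genes with a mean of 10 to 110 FPKM it was 0.16. The map of deviations by library shows this narrow range, with PA200, PBG1, PBD2 and RPN5A of wild type replicate 1 as the darkest cells.

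**Figure D1:**
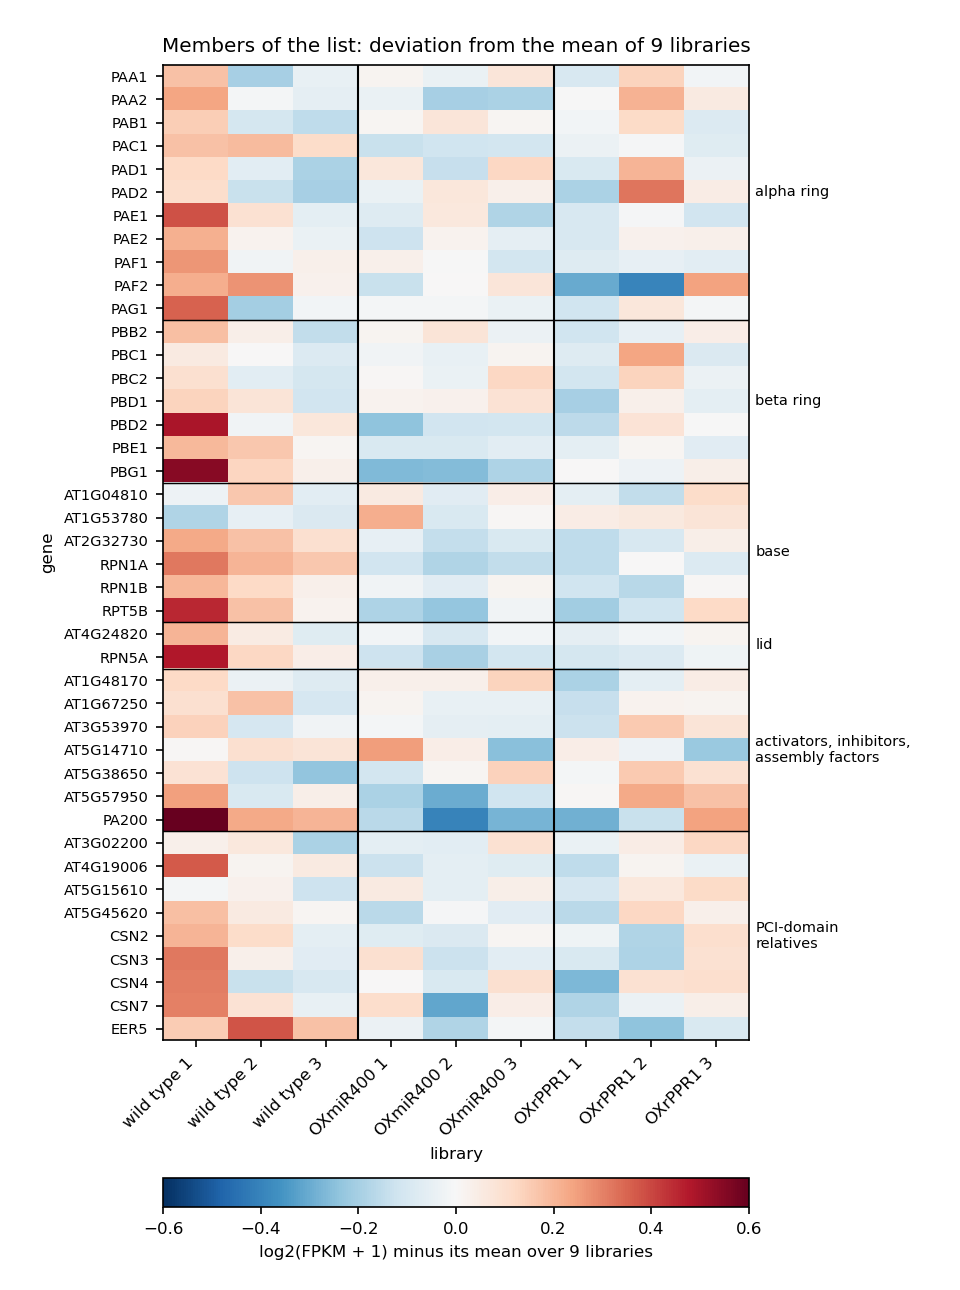
Rows are the 42 tested proteasome genes grouped by role, columns the 9 libraries, and the color is log2(FPKM + 1) minus the gene's mean over the 9 libraries. Wild type replicate 1 is the reddest column, being the highest of the 9 libraries for 26 of the 42 genes.

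The library labelled wild type replicate 1 stood apart for these genes. It held the highest value of all 9 libraries in 26 of the 42 genes (61.9%), where it did so in 17.7% of all tested genes, and the highest of the 3 wild type libraries in 33 genes. Wild type replicate 2 was highest of the 9 in 5 genes and replicate 3 in 0. Summed over the 42 genes, wild type replicate 1 reached 1884 FPKM, against 1655 and 1573 FPKM in the other wild type libraries. The OXmiR400 libraries summed to 1590, 1551 and 1604 FPKM and the OXrPPR1 libraries to 1530, 1686 and 1641 FPKM, so 1 of the 9 sums lies clear of the rest. Its depth, 12.7 M, was the lowest of the 9 libraries, and the part of depth in the high values was not tested.

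The first comparison asked how OXmiR400 differed from wild type under cadmium. No proteasome gene passed the test: limma with Benjamini-Hochberg adjustment over all tested genes called 0 of 42 at an adjusted p under 0.05, where it called 0.571% of all tested genes. At an unadjusted p under 0.05, 11 of the 42 genes were below wild type and 0 above, beside 9.19% of all tested genes below and 6.71% above. In 14 genes every OXmiR400 library lay below every wild type library, and in 0 genes above, beside 13.5% and 10.8% of all tested genes. The estimate was below 0 in 31 of the 42 genes, beside 53.1% of all tested genes, and the median log2 difference was -0.12 over the 42 genes and -0.02 over all tested genes. The members were chosen with results of these data known, so these counts and medians are descriptions. In whole seedlings, fewer cells of a type and less RNA per cell cannot be told apart.

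Without wild type replicate 1 the picture was narrower. The median log2 difference of OXmiR400 was then -0.05, with 26 of 42 estimates below 0 and 7 genes below wild type at an unadjusted p under 0.05. Over all tested genes the median was then -0.01, and 7.52% were lower at that level. The median over the 42 genes was -0.14 without wild type replicate 2 and -0.17 without wild type replicate 3. Leaving out OXmiR400 replicate 1 gave 7 genes at that unadjusted level, beside 9.1% of all tested genes. Leaving out OXmiR400 replicate 2 gave 5 and a median of -0.08, beside 5.73% of all tested genes at that level. Markers of the organs moved between the same groups. The 4 shoot markers summed to 5633 to 6394 FPKM in wild type and 7829 to 10243 FPKM in OXmiR400, with 4 of 4 estimates above 0. The 4 root markers summed to 43.1 to 58.7 FPKM in wild type and 29.5 to 34.7 FPKM in OXmiR400, with 4 of 4 estimates below 0. None of these 8 genes was called by limma with Benjamini-Hochberg adjustment, although 4 had an unadjusted p under 0.05, and CASP1 was called in 3 of the 17 alternatives, among them the fit of only the 6 libraries (limma adjusted p = 0.0112 there, and 0.0112 to 0.256 over the alternatives). The part of organ proportions in the proteasome values was not tested.

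By role, 8 of the genes belong to the regulatory particle. Of these, 7 were below 0 and 5 did not overlap wild type, with a median log2 difference of -0.20, whereas 12 of 18 core particle genes were below 0 and 4 did not overlap, with a median of -0.09. In the alpha ring 7 of 11 estimates were below 0 and 1 gene had an unadjusted p under 0.05. The beta ring had 5 of 7 below 0 and 3 genes at that level, but its median of -0.01 was near that of all tested genes (-0.02). Among the activators, inhibitors and assembly factors 5 of 7 tested genes were below 0 and 2 reached that level, and among the PCI-domain genes 7 of 9 and 1. Over all tested genes 53.1% were below 0, 9.19% were lower at that level and 13.5% did not overlap wild type on the lower side, and the alpha ring (9.09%) and the PCI-domain genes (11.1%) were near the share at that level. Roles follow the descriptions, so the RPN9 lid genes AT5G45620 and AT4G19006 count here with the PCI-domain genes and not with the regulatory particle. They stood at -0.16 ± 0.10 and -0.23 ± 0.11, with every OXmiR400 library below every wild type library. No test of the difference between roles was made. The plot of differences from wild type orders the 42 genes by their estimate in OXmiR400.

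**Figure D2:**
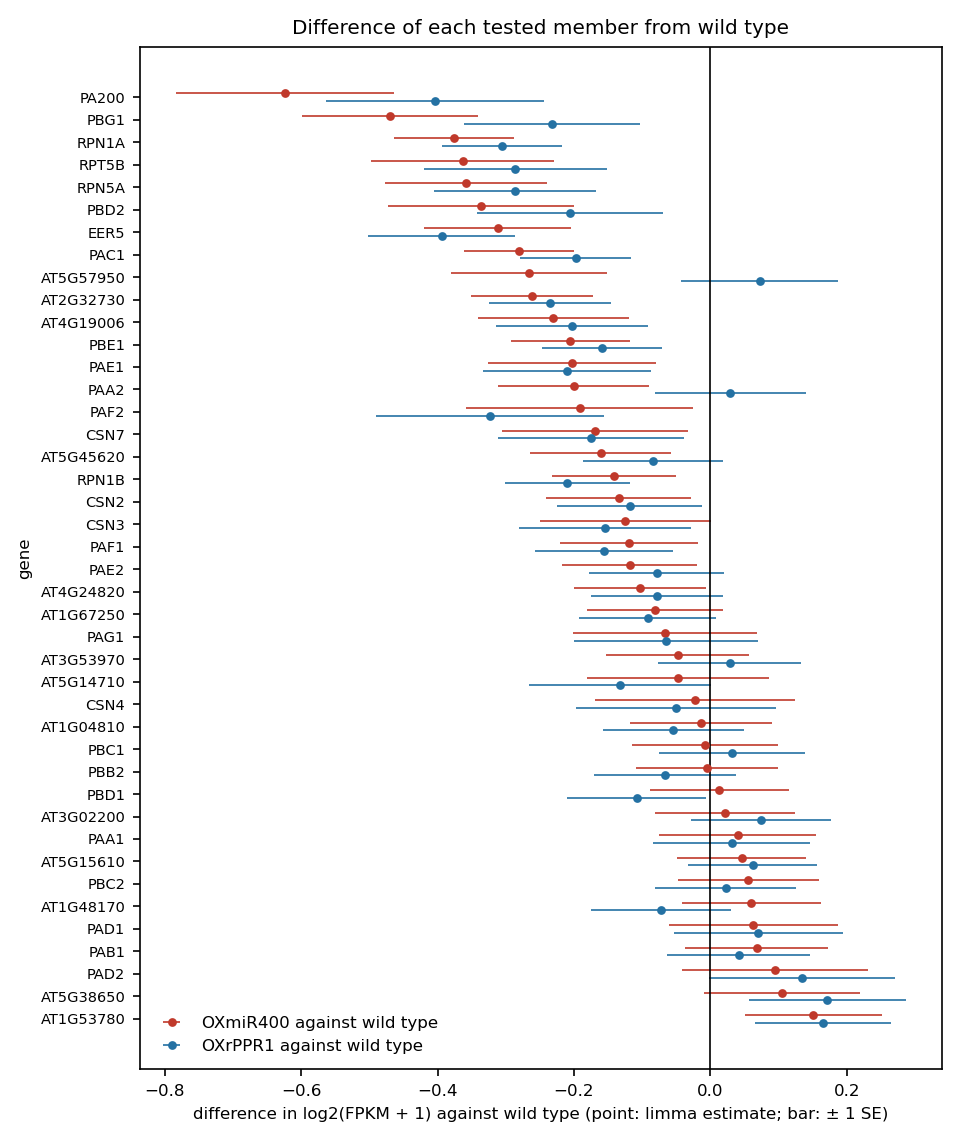
Points are limma estimates of the difference in log2(FPKM + 1) from wild type and bars are ± 1 SE, with OXmiR400 in red and OXrPPR1 in blue, each on 3 libraries against the same 3 wild type libraries. In OXmiR400, 31 of the 42 estimates lie below 0, from -0.62 for PA200 to 0.15 for AT1G53780.

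RPN1A, the gene with the smallest p, encodes the larger part of the RPN1 pool, a scaffold subunit of the base that docks ubiquitin receptors and shuttle proteins. It lies at chromosome 2, positions 8858962 to 8864865 of TAIR10.1, on the plus strand. It measured 44.8, 41.3 and 40.2 FPKM in wild type, 32.9, 31.4 and 32.2 FPKM in OXmiR400 and 32.1, 35.8 and 33.7 FPKM in OXrPPR1. All 6 libraries of the transgenic lines lay below all 3 wild type libraries, and the lines overlapped each other. The log2 difference of OXmiR400 from wild type was -0.38 ± 0.09 (SE), which did not pass the threshold (limma, Benjamini-Hochberg adjusted p = 0.0891, and 0.0806 to 0.278 over the 17 alternatives). Without wild type replicate 1 it was -0.33.

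PA200 encodes a single large protein that caps the core particle and opens its gate without the use of ATP. The gene spans positions 4319490 to 4330218 of chromosome 3 on the minus strand. PA200 gave 18.3, 13.9 and 13.7 FPKM in wild type, 10.4, 8.65 and 9.52 FPKM in OXmiR400 and 9.44, 10.6 and 14.1 FPKM in OXrPPR1. OXmiR400 did not overlap wild type, while the third OXrPPR1 library lay inside the wild type range. At -0.62 ± 0.16 the OXmiR400 estimate was the largest of the 42 in size, and it was -0.50 without wild type replicate 1 (limma, Benjamini-Hochberg adjusted p = 0.106 with all libraries, and 0.0681 to 0.319 over the alternatives).

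PBG1, a beta ring subunit gene that RefSeq links to the response to cadmium ion, occupies positions 21141633 to 21144458 of chromosome 1 and overlaps AT1G56440 on the opposite strand. The handling of strand is not given in the sources used here, so reads of the overlapping genes cannot be told apart. It stood at 70.7, 52.6 and 49.1 FPKM in wild type, 39.9, 40.01 and 42.2 FPKM in OXmiR400 and 48.1, 47.1 and 49.3 FPKM in OXrPPR1. The first wild type library was far above the other 2, and OXmiR400 lay below both other genotypes with no overlap. The estimate was -0.47 ± 0.13 and -0.31 without wild type replicate 1 (limma, Benjamini-Hochberg adjusted p = 0.126, and 0.116 to 0.335 over the alternatives).

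PAC1, an alpha ring subunit gene at positions 7792549 to 7794262 of chromosome 3 on the minus strand, varied little between replicates. It measured 68.7, 69.5 and 65.7 FPKM in wild type, 55.3, 55.8 and 56.2 FPKM in OXmiR400 and 59.3, 60.5 and 57.7 FPKM in OXrPPR1. The 3 genotypes did not overlap: wild type was highest, OXrPPR1 intermediate and OXmiR400 lowest. Against wild type the log2 difference was -0.28 ± 0.08 in OXmiR400 (limma, Benjamini-Hochberg adjusted p = 0.139) and -0.20 ± 0.08 in OXrPPR1 (adjusted p = 0.437). Leaving out wild type replicate 1 gave -0.27 and -0.19.

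RPN5A is the more abundant gene of a pair for a lid subunit, and RefSeq records an embryo-defective phenotype in its name, EMB2107. The gene, at positions 3089278 to 3093020 of chromosome 5, overlaps AT5G09910 on the opposite strand. It was measured at 69.0, 53.6 and 50.5 FPKM in wild type, 45, 42.7 and 45.4 FPKM in OXmiR400 and 45.5, 46.3 and 48.2 FPKM in OXrPPR1. Both lines lay below wild type in every library. The OXmiR400 estimate was -0.36 ± 0.12 (limma, Benjamini-Hochberg adjusted p = 0.187) and -0.22 without wild type replicate 1, the library with 69.0 FPKM.

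The other genes with an unadjusted p under 0.05 in OXmiR400 were RPT5B, an ATPase of the base (-0.36 ± 0.13), the Rpn2 scaffold gene AT2G32730 (-0.26 ± 0.09), the beta subunit genes PBD2 (-0.34 ± 0.14) and PBE1 (-0.21 ± 0.09), EER5 (-0.31 ± 0.11) and AT5G57950 (-0.27 ± 0.11). All 6 had libraries that did not overlap wild type, and their limma adjusted p-values, by Benjamini-Hochberg, were 0.199 to 0.296. PBE1 encodes the beta subunit with chymotrypsin-like activity, and the wild type libraries at 65.1, 63.5 and 57.1 FPKM were above the OXmiR400 libraries at 53.1, 53.1 and 54.2 FPKM. PBB2, which encodes the subunit with trypsin-like activity, was closest to 0 of the 42 at -0.01 ± 0.10, with 36.9, 33.3 and 29.2 FPKM in wild type, a range that held the OXmiR400 values of 32.8, 34.2 and 31.6 FPKM. Its sign turned to 0.07 without wild type replicate 1 and to 0.03 under quantile normalization and under median centring.

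At the upper end, no gene was above wild type at an unadjusted p under 0.05. AT1G53780, described as a regulatory complex ATPase, had 43.2, 47.4 and 46.2 FPKM in wild type. The OXmiR400 libraries held 57.3, 46.05 and 49.3 FPKM, with 1 of them below the highest wild type library. Its estimate was 0.15 ± 0.10, that of AT5G38650 was 0.11 ± 0.11 and those of the alpha subunit genes PAD2 and PAB1 were 0.09 ± 0.14 and 0.07 ± 0.10. AT3G53970, the tested gene for a proteasome inhibitor-like protein, differed by -0.05 ± 0.10, and the UMP1 gene AT1G67250 by -0.08 ± 0.10. The assembly chaperone genes AT1G48170 and AT5G14710 stood at 0.06 ± 0.10 and -0.05 ± 0.13. The 4 COP9 signalosome subunits among the members, CSN2, CSN3, CSN4 and CSN7, ranged from -0.17 to -0.02.

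**Figure D3:**
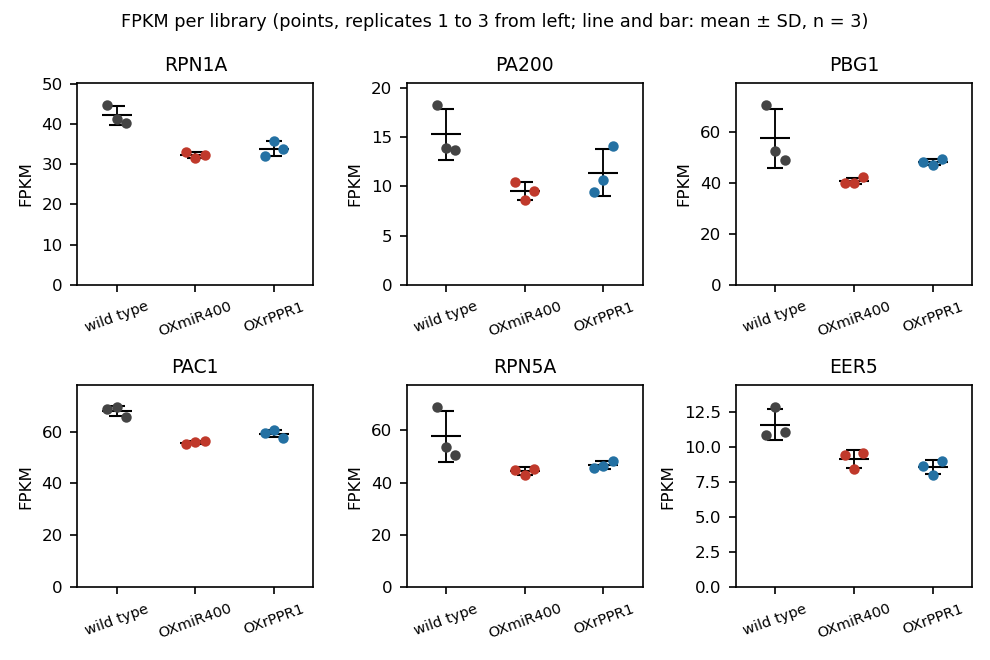
FPKM of 6 named genes, with 1 point per library (replicates 1 to 3 from left to right in each genotype) and the mean ± SD (n = 3) in black. In RPN1A, PAC1, RPN5A and EER5 every library of both lines lies below every wild type library, and in PA200 and PBG1 this holds for OXmiR400.

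The promoters were searched for TGGGC, the core of the element through which NAC53 and NAC78 are known to bind proteasome genes. The window was the 250 bases before each annotated start in the RefSeq genome TAIR10.1, on both strands, so that GCCCA on the gene's strand also counts and matches that overlap count separately. Of the 44 genes 18 (40.9%) held a match, beside 22.7% of 27443 protein-coding genes and 25.7% of the tested ones. The base had 4 of 6 promoters with a match, the alpha ring 5 of 11, the beta ring 3 of 7 and the lid 0 of 2. Among the 28 subunit genes outside the members it was 14. Tested members with a match had a median log2 difference of -0.11 in OXmiR400 (n = 18) and those without one -0.12 (n = 24).

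The windows printed are those of the 3 members with the smallest p in OXmiR400 whose window is clear of other genes, and that of the member nearest to 0, each 5' to 3' on the gene's strand with matches in capitals. They lie at chr2:8858712-8858961 (plus strand) for RPN1A, chr3:4330219-4330468 (minus) for PA200, chr3:7794263-7794512 (minus) for PAC1 and chr5:16250926-16251175 (minus) for PBB2, in TAIR10.1.
RPN1A: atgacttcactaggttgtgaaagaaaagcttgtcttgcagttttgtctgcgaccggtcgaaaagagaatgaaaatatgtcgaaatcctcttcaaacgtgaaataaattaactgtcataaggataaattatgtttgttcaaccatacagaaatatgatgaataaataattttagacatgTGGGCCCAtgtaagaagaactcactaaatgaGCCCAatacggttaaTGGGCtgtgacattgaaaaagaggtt
PA200: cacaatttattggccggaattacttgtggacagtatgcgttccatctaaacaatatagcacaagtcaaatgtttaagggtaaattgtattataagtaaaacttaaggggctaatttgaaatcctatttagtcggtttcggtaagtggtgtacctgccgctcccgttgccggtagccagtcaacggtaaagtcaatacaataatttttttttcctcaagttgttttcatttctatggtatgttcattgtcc
PAC1: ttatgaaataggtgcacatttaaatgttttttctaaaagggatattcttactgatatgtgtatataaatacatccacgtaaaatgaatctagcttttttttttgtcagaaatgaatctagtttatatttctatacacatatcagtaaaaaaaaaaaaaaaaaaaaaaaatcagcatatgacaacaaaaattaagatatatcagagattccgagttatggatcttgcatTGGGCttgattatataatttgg
PBB2: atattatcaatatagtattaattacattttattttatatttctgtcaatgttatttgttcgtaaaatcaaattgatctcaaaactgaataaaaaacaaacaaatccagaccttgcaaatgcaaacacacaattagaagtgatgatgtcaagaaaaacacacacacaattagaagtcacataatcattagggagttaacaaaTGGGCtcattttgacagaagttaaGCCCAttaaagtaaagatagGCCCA

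RPN1A held 4 matches, of which 2 overlap in the palindromic run that begins 72 bases before the start, and the others begin 41 and 26 bases before it. PAC1 held 1 match 22 bases before its start. PA200 held 0, which says only that these letters are not in this window. PBB2, whose estimate in OXmiR400 was -0.01, held 3 matches. A match is a description of the sequence and not a measured binding site.

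The second comparison set OXrPPR1 against the same wild type libraries, so it is not independent of the first. Again 0 of 42 genes were called by limma with Benjamini-Hochberg adjustment, beside 0.0651% of all tested genes. At an unadjusted p under 0.05, 7 genes were below wild type and 0 above, beside 5.7% and 4.81% of all tested genes. The libraries did not overlap in 7 genes below and 1 gene above, AT1G53780, beside 8.33% and 6.36%. Estimates were below 0 in 29 of 42 genes, beside 54.0% of all tested genes, with a median log2 difference of -0.09 over the 42 genes and -0.02 over all tested genes. The count of 7 was not steady. It was 2 without wild type replicate 1 or OXrPPR1 replicate 1 or with only these 6 libraries in the fit. In these fits 3.86%, 5.8% and 4.5% of all tested genes were lower at that level. It was 3 under median centring and without OXrPPR1 replicate 2, beside 4.39% and 3.89% of all tested genes. Without wild type replicate 2, OXmiR400 replicate 2 or OXmiR400 replicate 3 it was 4, beside 6.22%, 5.07% and 4.74%. The median over the 42 genes was -0.05 without wild type replicate 1 and -0.04 without OXrPPR1 replicate 1. Leaving out OXrPPR1 replicate 3, whose own nearest library was wild type replicate 3, gave 8 genes and a median of -0.12. Of all tested genes 7.59% were then lower at that level.

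EER5 had the smallest p in OXrPPR1. The RefSeq annotation describes a protein with a PAM domain, another name of the PCI domain, that acts in ethylene signalling, and the gene lies at positions 8465690 to 8469145 of chromosome 2. EER5 gave 10.8, 12.9 and 11.1 FPKM in wild type, 8.66, 8.03 and 9.01 FPKM in OXrPPR1 and 9.42, 8.41 and 9.57 FPKM in OXmiR400. Every library of both lines was below every wild type library. The OXrPPR1 estimate was -0.39 ± 0.11 (limma, Benjamini-Hochberg adjusted p = 0.24), and it was -0.44 without wild type replicate 1, a library that was lowest of wild type for this gene.

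For the genes named above, the OXrPPR1 estimates were -0.31 ± 0.09 in RPN1A (limma, Benjamini-Hochberg adjusted p = 0.269), -0.40 ± 0.16 in PA200, -0.23 ± 0.13 in PBG1, -0.29 ± 0.12 in RPN5A and -0.24 ± 0.09 in AT2G32730. The base again had 5 of 6 estimates below 0, with a median of -0.22. The beta ring had 5 of 7 below 0 and no gene at an unadjusted p under 0.05. The largest estimates above 0 were 0.17 ± 0.11 in AT5G38650 and 0.17 ± 0.10 in AT1G53780, whose OXrPPR1 values of 50.6, 51.2 and 51.8 FPKM all lay above the wild type libraries.

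The third comparison set the lines against each other. Of the 42 genes 0 were called by limma with Benjamini-Hochberg adjustment, beside 0.0651% of all tested genes, and 1 was lower in OXmiR400 at an unadjusted p under 0.05, beside 4.06% of all tested genes lower and 3.34% higher. The libraries did not overlap in 5 genes, lower in OXmiR400 in each, beside 7.28% of all tested genes lower and 5.9% higher. Estimates were below 0 in 25 of 42 genes, beside 49.6% of all tested genes. The median difference of OXmiR400 from OXrPPR1 was -0.02, and it was 0.01 under quantile normalization. At the unadjusted level 3 genes were lower without wild type replicate 1, 2 with only these 6 libraries, and 0 without OXmiR400 replicate 2 or OXrPPR1 replicate 2. Over all tested genes 4.3%, 4.49%, 2.72% and 3.53% were lower at that level in these fits, in that order. With all libraries the 1 gene was AT5G57950, described only as a regulatory subunit, with 13, 12 and 13.6 FPKM in OXmiR400 and 15, 17.6 and 17 FPKM in OXrPPR1. The OXrPPR1 values lay inside the wild type range of 13.9 to 17.9 FPKM and the OXmiR400 values below it. The difference of -0.34 ± 0.11 did not pass the threshold (limma, Benjamini-Hochberg adjusted p = 0.546, and 0.435 to 0.865 over the alternatives). A p that misses the threshold does not show that the lines are alike: the median SE over the 42 genes was 0.11. The organ markers also differed between the lines: the 4 root markers were all below 0 in OXmiR400 against OXrPPR1, with a median of -0.74, 4 not overlapping and 3 at an unadjusted p under 0.05. The 4 shoot markers were all above 0, with a median of 0.44 and 2 at that level, and limma with Benjamini-Hochberg adjustment called none of the 8. In OXrPPR1 the shoot markers summed to 6603 to 8102 FPKM and the root markers to 42.6 to 76.8 FPKM, and against wild type 3 of 4 and 2 of 4 were above 0 with none at an unadjusted p under 0.05. Their part in the proteasome values was not tested.

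Many proteasome subunits have descriptions without the word proteasome and fall outside the 44 genes. Of a list of 28 such subunit genes 27 were tested. Of these, 22 were below 0 in OXmiR400 against wild type with a median log2 difference of -0.18, 9 had an unadjusted p under 0.05, all below, and limma with Benjamini-Hochberg adjustment called 0. In OXrPPR1 22 of 27 were below 0, with a median of -0.13 and 4 genes at an unadjusted p under 0.05. Over all tested genes 53.1% were below 0 and 9.19% were lower at that level in OXmiR400, and 54.0% and 5.7% in OXrPPR1. Of the 27 genes, the one with the smallest p was RPT2a, an ATPase of the base that RefSeq describes as required for root meristem maintenance. It stood at 109.9, 86.7 and 79.2 FPKM in wild type, 59.9, 57.3 and 60.9 FPKM in OXmiR400 and 67.5, 74.5 and 64.4 FPKM in OXrPPR1. Both lines lay below wild type in every library, and the OXmiR400 estimate was -0.61 ± 0.13, or -0.48 without wild type replicate 1 (limma, Benjamini-Hochberg adjusted p = 0.0688, and 0.063 to 0.233 over the alternatives). Other ATPase genes of the base gave -0.37 ± 0.10 (RPT6A), -0.40 ± 0.12 (RPT1A) and -0.01 ± 0.10 (RPT5A) in OXmiR400.

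Among catalytic subunit genes outside the members, PBA1, with caspase-like activity, stood at -0.31 ± 0.14 and PBB1, the more abundant gene for the trypsin-like subunit, at -0.23 ± 0.10. AT3G26340, listed with the beta ring and described in the file only as an Ntn hydrolase, stood at -0.24 ± 0.14. The ubiquitin receptor genes RPN10 and RPN13 stood at -0.19 ± 0.12 and 0.04 ± 0.11. NAC53, the first of the factors named in the background, had 24.0, 19.7 and 19.9 FPKM in wild type, 16.2, 15.0 and 14.9 FPKM in OXmiR400 and 18.5, 16.5 and 16.2 FPKM in OXrPPR1. All line libraries were below all wild type libraries, with an OXmiR400 estimate of -0.43 ± 0.11 that did not pass the threshold (limma, Benjamini-Hochberg adjusted p = 0.0968, and 0.0879 to 0.284 over the alternatives) and was -0.34 without wild type replicate 1. NAC78, which RefSeq lists as NAC2, gave -0.24 ± 0.11 (adjusted p = 0.317).

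For subunits encoded by a pair of genes, the share of each gene in the summed FPKM of the pair does not depend on library scaling. Such shares were computed for all 24 subunits that have a pair of names in the subunit list, with a locus printed where neither the file nor RefSeq names the gene. In wild type the more abundant gene held from 50.1% (DSS1(I)) to 99.5% (RPN12a). In OXmiR400 the share did not overlap wild type in 12 of 24 pairs, lower in 8 and higher in 4. In OXrPPR1 against wild type this was so in 5 pairs, and between the lines in 6. Shares of other gene pairs were not computed, so these counts have no background of pairs beside them. For single genes, an unlike measure, OXmiR400 did not overlap wild type in 13.5% (lower) and 10.8% (higher) of all tested genes. An exact permutation test on 3 against 3 libraries cannot go below p = 0.1, and no pair passed after adjustment over the 72 tests, where the smallest adjusted p was 0.288.

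RPN1A made up 67.9%, 67.4% and 68.2% of the RPN1 pair in wild type, 64.6%, 64.3% and 63.5% in OXmiR400 and 65.7%, 68.9% and 64.6% in OXrPPR1. OXmiR400 was lower than wild type in every library, and OXrPPR1 spanned both. The summed level of the pair was 62.1 ± 3.57 FPKM in wild type and 50.2 ± 1.13 FPKM in OXmiR400 (SD, n = 3 each). The Rpn2 gene AT2G32730 held 62.1% ± 2.05 of its pair in wild type and 57.9% ± 0.489 in OXmiR400, and RPN5A held 85.6% ± 0.667 and 82.9% ± 0.906 (SD, n = 3 each), so in each of these 3 pairs the more abundant gene held a smaller share in OXmiR400. In the RPT2 pair, neither gene of which is a member, RPT2a held 77.8% ± 2.10 in wild type, 70.6% ± 0.601 in OXmiR400 and 72.4% ± 1.21 in OXrPPR1. In the RPT1 pair, RPT1A against AT1G53780, the share of RPT1A was 68.3%, 61.6% and 60.0% across the wild type libraries, and the OXmiR400 libraries were lower at 50.5%, 56.3% and 55.6%. PBB1 held 64.3% ± 1.95 and 60.7% ± 1.04. In the PAC and RPN12 pairs, where 1 gene held nearly all, PAC1 held 97.5% ± 0.459 and 96.1% ± 0.581 and RPN12a 99.5% ± 0.0792 and 98.5% ± 0.733, and the lower RPN12 gene was under the filter.

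The opposite order was seen in the PBD, RPT5, PAA and RPN8 pairs. PBD1 held 57.5%, 65.2% and 60.5% of its pair in wild type and 67.9%, 65.9% and 66.9% in OXmiR400, with a gap of less than 1 percentage point between the nearest libraries. RPT5A held 79.8% ± 3.22 in wild type and 83.8% ± 0.199 in OXmiR400. PAA1 held 52.1% ± 1.75 and 56.3% ± 1.77, and RPN8A 78.9% ± 2.47 and 83.1% ± 1.22. Overlapping models were looked up for the members only, and not for pair genes outside them such as both genes of the RPT2 and RPN8 pairs. Among members, models on the opposite strand are annotated for PBD1, PBD2 and RPT5B, and in the pairs of the lower order for RPN5A and PBB2. Similar genes can also share reads, so the shares of both orders also carry how the counting assigned such reads. The plot of pair shares gives all 24 pairs by library.

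**Figure D4:**
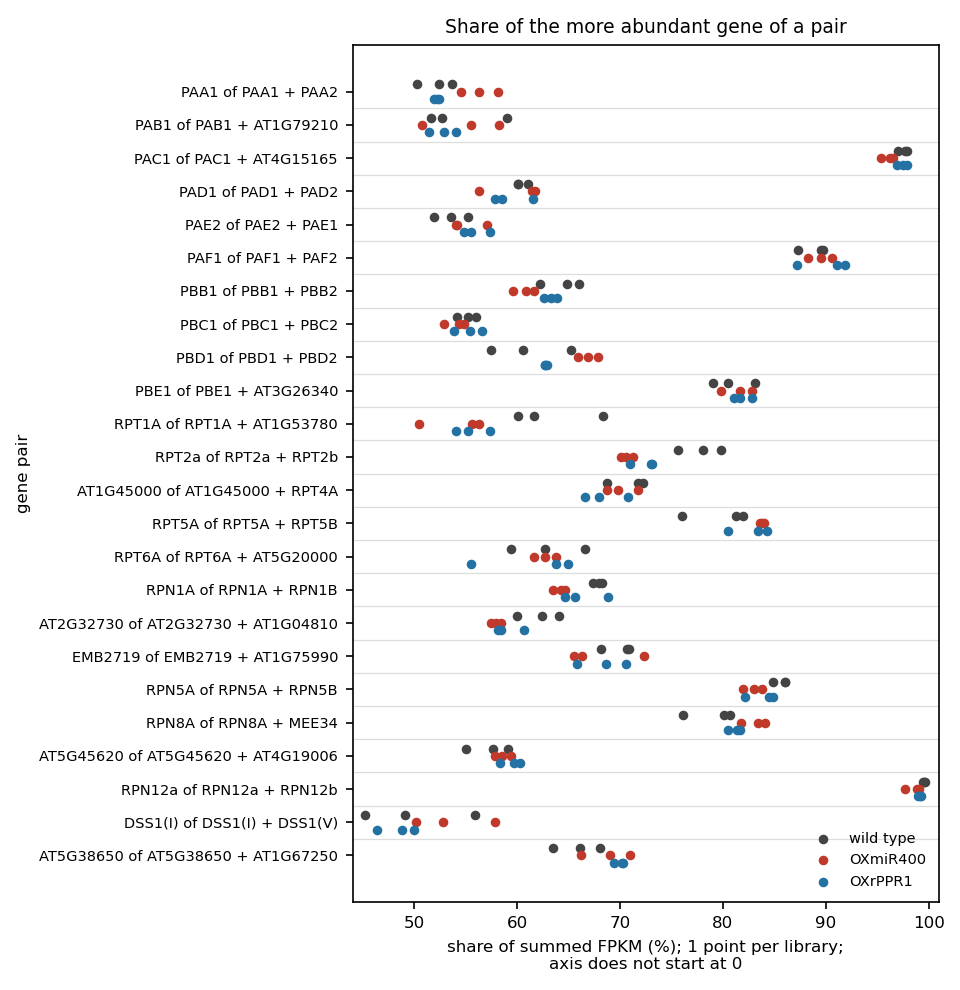
Each row is a pair of genes for 1 subunit, and each point the share of the more abundant gene in the pair's summed FPKM (%) in 1 library, colored by genotype; the axis does not start at 0. RPT1A, RPT2a, RPN1A and AT2G32730 hold a smaller share in OXmiR400 than in wild type in every library, and PBD1, RPT5A, PAA1 and RPN8A a larger one.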

How the data were processed

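Processed values of 9 RNA-seq libraries were used. TRIzol extraction and a SMARTer mRNA library kit are named per the labels' protocols. The values deposited by the authors were taken as FPKM from their behaviour, since neither labels nor headers state a unit: their products with exon length add up to 0.993 to 0.998 M in each library. Of 3 deposited tables, identical in content, 1 was used. The mouse builds GRCm38 and mm10 appear per the submitters' processing notes, yet of 26513 genes matched to TAIR10.1 (RefSeq) 26504 have its start and end, the 44 proteasome genes among them. Alignment, counting, strand and multiply mapped reads: not given in the sources used here. Depth was rebuilt from low values, of which 99.2% to 99.7% fell on steps of which 4 make 1 unit and 50.5% to 54.8% on whole units (tolerance 0.05 of a step). No count model was used for that reason, and depths are approximate.

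The test was limma 3.58.1 (R 4.3.3) on log2(FPKM + 1) of the 19955 genes that reached a mean of 1 FPKM in some genotype, as 1 model of the 3 genotypes with trended, robust empirical Bayes variances, Benjamini-Hochberg adjustment over all tested genes and a threshold of 0.05. This scale makes the differences of low genes too small. The method was run on simulated data with changes larger than any member estimate here. Recovery of differences of the size reported was therefore not tested. Tables were made with pandas 2.3.3.

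The members and lists were chosen with earlier results of these data known. Named genes were, per comparison, the 5 members above and the 5 below 0 with the smallest p, subunits with a catalytic or single role, the 3 highest and 3 lowest members, NAC53 and NAC78, and the gene with the smallest p of each other list. Further genes were named, roles were assigned, and the printed promoters and the exact test of pair shares were chosen, after values were seen. Alternatives were a pseudocount of 0.1, no filter, a filter of 5 FPKM, quantile normalization, median centring, no variance trend, only the 6 libraries compared, a replicate block, and each library left out; for pair shares, leaving out a library was added after seeing the data.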

Additional observations from a re-analysis of the deposited data

How the results depend on the processing

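Under each of the 17 alternatives 0 of the proteasome genes were called in any comparison. The median log2 difference over them lay between -0.17 and -0.05 for OXmiR400 against wild type, between -0.15 and -0.04 for OXrPPR1 against wild type and between -0.06 and 0.01 for OXmiR400 against OXrPPR1. With 1 library left out, the number lower at an unadjusted p under 0.05 ranged from 5 to 11, from 2 to 10 and from 0 to 3 in these comparisons. The share of all tested genes at that level then ranged from 5.73% to 9.98%, from 3.86% to 7.59% and from 2.72% to 4.65%. For OXrPPR1 against wild type the number of members was 3 under median centring, beside 4.39% of all tested genes. With only the 6 libraries compared it was 2, beside 4.5%, and for OXmiR400 against OXrPPR1 also 2, beside 4.49%.

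Over all tested genes, the 114 called in OXmiR400 against wild type became 8 to 216, with 8, 9 and 25 when OXmiR400 replicate 2, 1 or 3 was left out and 36 and 42 without wild type replicate 1 or 3. Calls ranged from 4 to 44 in OXrPPR1 against wild type and from 7 to 24 between the lines, where 13 were called in each.

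The deviations of same-numbered libraries from their genotype means had r of -0.246 to 0.133 over the tested genes. The main fit did not pair libraries by number, and whether those of 1 number were handled together was not tested. With the replicate number as a block, 0 members were called, 8, 5 and 1 were lower at an unadjusted p under 0.05 and the median for OXmiR400 against wild type stayed at -0.12. Over all genes the block gave 92, 10 and 7 calls, and 9.13%, 5.83% and 4.21% were lower at that unadjusted level.

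Among 1817 values of named genes 28, in 14 results, changed sign, none called and none above 0.0817 in size. Under quantile normalization and median centring these were PBB2 in OXmiR400 against wild type (0.0280 and 0.0278) and RPN13 in OXrPPR1 against wild type (0.0234 and 0.0345), and under quantile normalization alone AT4G24820 between the lines (0.0135). The others came from leaving out 1 library, over which the estimates ranged as follows. For OXmiR400 against wild type the ranges were -0.09 to 0.0737 for PBB2, -0.0144 to 0.129 for RPN13 and -0.1007 to 0.0179 for AT3G53970. For OXrPPR1 against wild type they were -0.1514 to 0.0123 for PBB2, -0.0617 to 0.0817 for RPN13, -0.0046 to 0.1223 for AT3G02200, -0.0315 to 0.1102 for AT3G53970 and -0.0246 to 0.0676 for RPT2b. Between the lines they were -0.0426 to 0.0003 for AT4G24820, -0.0859 to 0.0601 for AT3G26340, -0.0007 to 0.1082 for RPN13, -0.0411 to 0.0376 for AT1G67250, -0.1631 to 0.0010 for NAC78 and -0.1569 to 0.0143 for AT3G15180. The cause was not tested. Of 432 differences in pair shares with a library left out, 0 moved by as much as the SD between replicates. Leaving out 1 of 3 libraries cannot move a mean that far, so this count was fixed in advance and says nothing about the pairs. With 3 libraries a genotype and no counts, small differences in single genes remain below what the test can call.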

Other observations

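Other protein turnover genes held 0 called genes in either line (limma, Benjamini-Hochberg). Among 14 genes of ubiquitin activation, shuttling and processing, 12 were below 0 in OXmiR400 against wild type with a median of -0.13, and 4 had an unadjusted p under 0.05. Of all tested genes, 53.1% were below 0 in that comparison and 9.19% were lower at that level, and in OXrPPR1 against wild type 54.0% were below 0. UBA1, a ubiquitin-activating enzyme gene, stood at -0.31 ± 0.09 and UBP6, a deubiquitinating enzyme gene, at -0.36 ± 0.11. The polyubiquitin genes, which supply ubiquitin itself, had 4 of 5 estimates above 0 in OXmiR400 and 2 of 5 in OXrPPR1, with SEs of 0.79 and 0.80 for UBQ11 and UBQ14, whose wild type libraries ran from 65.2 to 321 FPKM and from 19.6 to 122 FPKM. UBQ10 stood at 0.42 ± 0.15 in OXmiR400 (limma, Benjamini-Hochberg adjusted p = 0.221) and -0.10 ± 0.15 in OXrPPR1. The 9 ATG8 genes, whose products mark autophagosomes, had a median of -0.14 in OXmiR400, with 6 below 0, and of 0.07 in OXrPPR1, with 8 above 0. In OXmiR400 0 of them were lower at an unadjusted p under 0.05 and 1 was higher. It was ATG8B, at 0.29 ± 0.12 (limma, Benjamini-Hochberg adjusted p = 0.2585). The difference between the lines was not tested for the list. Of 6 COP9 signalosome genes outside the members 4 were below 0 in OXmiR400, with a median of -0.09.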
